A study of Mus musculus with 3 samples.

Results

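The mitochondrial ribosomal proteins are the nuclear-encoded proteins of the ribosome inside mitochondria. Their genes were taken as all genes whose symbol is Mrps or Mrpl, a number and at most 1 further letter, on probe sets that the array annotation assigns to a single gene. This gave 76 of 18193 genes, 29 Mrps genes named for the small subunit and 47 Mrpl genes named for the large subunit, on 156 of 34945 probe sets with 1 symbol. For each gene the probe set of highest mean log2 signal was used, and the other probe sets of 42 of the genes served as a check. The remaining 34 genes had 1 probe set.

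Gastrocnemius muscle of male C57BL/6J mice was measured on Affymetrix Mouse Genome 430 2.0 arrays. The HF + SFC group received a high-fat diet with 60% of energy as fat and 0.023% (w/w) sodium ferrous citrate, an iron supplement. The HF group received the same high-fat diet without the supplement, and the Control group a diet with 10% of energy as fat. All groups were fed from 6 weeks of age for 15 weeks. The age in the labels is 21 months, which does not match that schedule. Each group was 1 array of a mix of the cDNAs of all its animals, so no spread between animals can be given, no difference was tested and all ratios describe 3 arrays. The comparisons of HF + SFC with HF, of HF with Control and of HF + SFC with Control share these arrays and are not independent of each other.

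The mitochondrial ribosome translates the few respiratory chain proteins that are encoded in mitochondrial DNA. Its RNA comes from mitochondrial DNA, but its proteins are encoded in the nucleus, made in the cytosol and imported. Some of them descend from bacterial ribosomal proteins and the others are found only in mitochondria. Muscle, with its high oxidative demand, uses this ribosome to supply the mitochondrially encoded core subunits of the respiratory chain.

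The promoters of these genes are shown first and were searched for elements known from genes of mitochondrial function. NRF-1 is a transcription factor of nuclear genes for mitochondrial proteins, the ETS family includes GABP (NRF-2) with a similar role, and YY1 binds near the start of many housekeeping and mitochondrial genes. RefSeq promoter windows (GRCm38.p6, 250 bases before to 50 bases after the start) were found for 67 of the 76 genes, and both strands were searched. The ETS letters CCGGAAG were in the windows of 25 of the 67 genes, 37.3%, against 12.9% of 17492 protein-coding genes. The NRF-1 motif was in 12, 17.9%, against 7.17% of protein-coding genes. The YY1 letters AAGATGGC were in 12, 17.9%, against 3.57%. Genes of the cytosolic ribosome had ETS letters in 36.4%, the NRF-1 motif in 7.58% and YY1 letters in 9.09%. Nuclear genes of respiratory chain subunits had them in 24.3%, 24.3% and 14.3%. The ETS share was thus nearly the same in cytosolic ribosomal genes and is not particular to mitochondrial genes. In all, 41 genes held at least 1 of these motifs and 0 held all of them. The share of protein-coding genes with at least 1 was not computed. The TATA box letters TATAAA were in 7.46% of the genes, against 14.8% of protein-coding genes, and the GC box letters GGGCGG in 50.7%, against 49.2%. The ETS letters overlapped a GC box in 2 members. A match describes the letters of a window and is not a measured binding site.

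Stretches with ETS letters (capitals, either strand) are printed as examples from the 5 highest, Mrps16 and Mrps18a, and among the 5 lowest, Mrpl3 and Mrps27, in the ratio of HF + SFC over HF described further on. They run 5′ to 3′ on the strand of the gene and lie at chr14:20393535-20393584 (minus strand), chr17:46110958-46111003 (plus strand), chr9:105053229-105053267 (plus strand) and chr13:99344718-99344767 (plus strand).
Mrps16: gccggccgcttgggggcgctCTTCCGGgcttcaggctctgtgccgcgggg
Mrps18a: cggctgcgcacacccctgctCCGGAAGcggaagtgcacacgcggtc
Mrpl3: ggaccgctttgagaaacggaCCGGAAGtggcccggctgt
Mrps27: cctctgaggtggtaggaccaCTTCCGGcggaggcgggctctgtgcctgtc

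Stretches with NRF-1 letters (capitals, either strand) are printed for Mrps21, another of the 5 highest in that ratio that also holds ETS letters, and for Mrpl9 and Mrpl44, both among the 5 lowest bright members in HF + SFC over Control. They lie at chr3:95871576-95871625 (minus strand), chr3:94443288-94443335 (plus strand) and chr1:79775963-79776012 (plus strand).
Mrps21: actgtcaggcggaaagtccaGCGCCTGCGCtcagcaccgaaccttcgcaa
Mrpl9: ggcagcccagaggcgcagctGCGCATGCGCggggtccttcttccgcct
Mrpl44: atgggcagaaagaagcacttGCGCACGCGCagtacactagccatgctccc

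All 76 genes were well within the measured range. Their signals, in the linear units of the MAS5 algorithm, ran between 503 and 17986 in HF + SFC, between 569 and 17156 in HF and between 677 and 18463 in Control. By mean log2 signal, 75 of the 76 lay above the 75th percentile of all genes, a signal of 826. Genes above that value are called bright here, and there were 4548 of them. The exception was Mrps5, a protein at the mRNA entry of the small subunit. Signals of different probe sets are not abundances, so only the same probe set is compared across arrays.

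The brightest members differed little between the arrays. Mrpl51 had a signal of 17839 in HF + SFC, 17156 in HF and 17682 in Control. Mrpl42 had 17986 in HF + SFC, 16289 in HF and 18463 in Control. Mrps14, the brightest of the small subunit genes, had 8539 in HF + SFC, 8601 in HF and 8289 in Control. Summed over the 76 genes, the signal was 263875 in HF + SFC, 256158 in HF and 268533 in Control.

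With iron in the high-fat diet, 43 of the 76 genes had a higher signal under HF + SFC than under HF and 33 a lower one, beside 55.8% higher and 44.2% lower among bright genes, with a median log2 ratio of 0.03 (bright genes 0.02). In HF against Control, 27 were higher and 49 lower, beside 43.3% and 56.7% of bright genes, with a median of −0.06 (bright genes −0.03). In HF + SFC against Control, 31 were higher and 45 lower, beside 49.6% and 50.4% of bright genes, with a median of −0.03 (bright genes −0.0011). Centring each array on its median signal instead of using the deposited scaling left 12 of 76 higher in HF over Control, beside 26.6% of bright genes, and 11 of 76 in HF + SFC over Control, beside 24.5%. The same centring moved the median of all genes to −0.08 in both comparisons, against 0.01 and 0.02 as deposited.

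The ratios were small. The SD of the log2 ratio across the 76 genes was 0.13 for HF + SFC over HF, 0.14 for HF over Control and 0.12 for HF + SFC over Control. Across the bright genes it was 0.16, 0.23 and 0.20 in the same 3 comparisons. On the brightest probe set 0 of the 76 genes reached the 1.5-fold difference used by the study in any comparison. Over all genes, many of them dim, 13.7% were at least 1.5-fold higher and 13.5% lower in HF + SFC over HF, 17% and 12.2% in HF over Control, and 16.5% and 12.4% in HF + SFC over Control. Among bright genes these shares were 0.0880% and 0.352%, then 1.08% and 0.923%, then 0.594% and 0.748%. At 1.2-fold, 2 members were higher (Mrps15 and Mrps16) and 1 lower (Mrpl3) in HF + SFC over HF, beside 4.07% and 4.31% of bright genes. In HF over Control 1 was higher (Mrps9) and 1 lower (Mrpl9), beside 7.43% and 9.08%. In HF + SFC over Control 0 were higher and 3 lower (Mrps5, Mrps27 and Mrpl9), beside 5.21% and 6.60%.

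**Figure D1:**
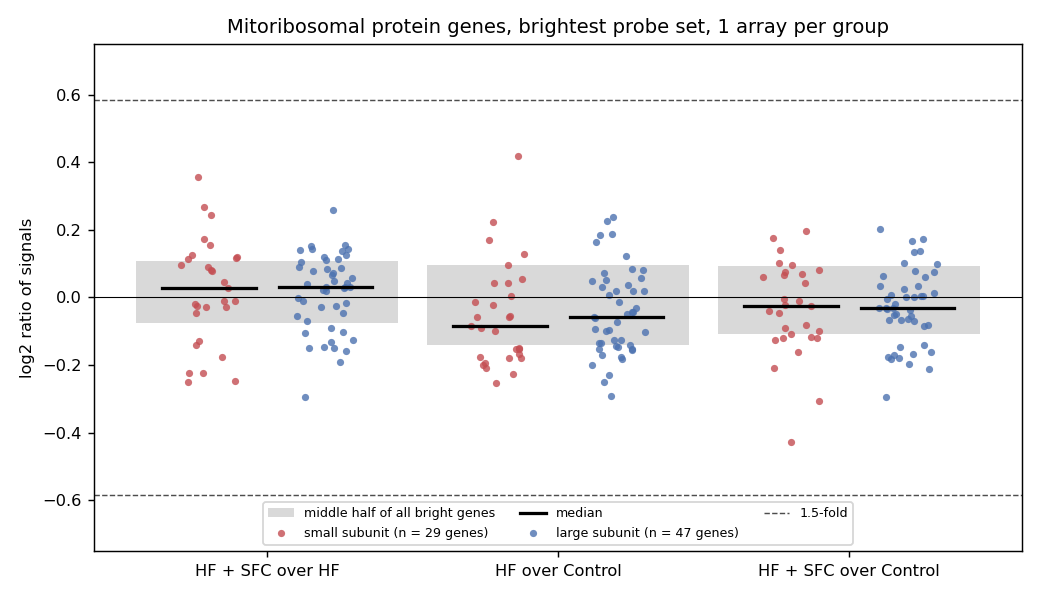
Log2 ratio of signals (y axis) of each of the 76 genes in the 3 comparisons, with small subunit genes in red, large subunit genes in blue, their medians as black lines, the range between the quartiles of all bright genes in grey and 1.5-fold as dashed lines. All points lie inside the dashed lines, and the largest distance from 0 is 0.43.

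The small and the large subunit were alike in their medians. For HF + SFC over HF the median log2 ratio was 0.03 in each subunit, with 15 of 29 small and 28 of 47 large subunit genes higher. For HF over Control it was −0.08 over the small and −0.06 over the large subunit, with 9 of 29 and 18 of 47 higher. For HF + SFC over Control it was −0.03 in each, with 11 of 29 and 20 of 47 higher. The difference of the medians, small minus large, was −0.00081, −0.026 and 0.0059 in log2 units in these 3 comparisons. The ratios of small subunit genes were spread more widely in all 3 comparisons. Their SD across genes was 0.16, 0.15 and 0.14, against 0.11, 0.13 and 0.11 for the large subunit. The SD of the difference between 2 bright probe sets of a gene, described further on, was 0.20 to 0.21.

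Some symbols do not give the place of the protein in the ribosome. Mrps30 and Mrps18a carry small subunit names, but their proteins sit in the large subunit. Mrps36 is now counted with the 2-oxoglutarate dehydrogenase complex of the citric acid cycle. With 26 small and 49 large subunit genes sorted by structure, the differences of the medians were −0.020, −0.010 and −0.00021. Mrps30 had a signal of 1723 in HF + SFC, 1748 in HF and 1874 in Control, and Mrps36 had 4474 in HF + SFC, 4125 in HF and 4290 in Control.

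The Mrps18 genes encode 3 related proteins that take different places, Mrps18a in the large subunit and Mrps18b and Mrps18c in the small. Mrps18a had 3944 in HF + SFC, 3497 in HF and 4014 in Control. Mrps18b had 1965 in HF + SFC, 1862 in HF and 2090 in Control. Mrps18c had 4460 in HF + SFC, 4177 in HF and 4215 in Control. Each of the 3 had its lowest signal in HF, by at most 1.13-fold against HF + SFC.

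Mrps15, which binds the ribosomal RNA of the small subunit, had the highest ratio of HF + SFC over HF. Its signal was 4409 in HF + SFC, 3444 in HF and 3900 in Control, a 1.28-fold difference between HF + SFC and HF. A second bright probe set of the gene had 3641 in HF + SFC, 3596 in HF and 3958 in Control, which is 1.01-fold. The difference on the first probe set was thus not seen on the second.

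The other high ratios of HF + SFC over HF were smaller. Mrps16 and Mrps21, small subunit proteins with bacterial counterparts, had 1 probe set above the bright limit each. Mrps16 had 6205 in HF + SFC, 5152 in HF and 5894 in Control (a log2 ratio of 0.27 over HF). Mrps21 had 6687 in HF + SFC, 5648 in HF and 6377 in Control (0.24). Mrpl49, a large subunit protein found only in mitochondria, had 950 in HF + SFC, 793 in HF and 847 in Control, and its second probe set had 802 in HF + SFC, 701 in HF and 782 in Control. In Mrpl49 both probe sets had their highest signal in HF + SFC and their lowest in HF.

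Mrpl3, a protein near the peptidyl transferase centre where peptide bonds are made, had the lowest ratio of HF + SFC over HF. Its signal was 1765 in HF + SFC, 2164 in HF and 1835 in Control, a log2 ratio of −0.29 for HF + SFC over HF and 0.24 for HF over Control. Its second probe set had 1054 in HF + SFC, 1138 in HF and 1091 in Control. Both probe sets were highest in HF, the second by less (log2 −0.11 and 0.06 in the same comparisons). Mrps26 had 1482 in HF + SFC, 1764 in HF and 1713 in Control. Mrps27, an RNA-binding protein of the pentatricopeptide repeat family, had 758 in HF + SFC, 885 in HF and 939 in Control.

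Mrps9, a small subunit protein, had the highest ratio of HF over Control. It had 1573 in HF + SFC, 1837 in HF and 1374 in Control, a log2 ratio of 0.42 for HF over Control. Its next 2 probe sets had 503 and 508 in HF + SFC, 501 and 555 in HF, and 721 and 585 in Control, with HF below Control on both. The dimmest had 30.5 in HF + SFC, 64.8 in HF and 63.6 in Control. The probe sets of Mrps9 therefore differed in direction.

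Mrpl9, a large subunit protein with a bacterial counterpart, had the lowest ratio of HF over Control. It had 1942 in HF + SFC, 1943 in HF and 2381 in Control, a log2 ratio of −0.29 both for HF over Control and for HF + SFC over Control. Its second probe set had 1146 in HF + SFC, 1314 in HF and 1836 in Control, a log2 ratio of −0.48 for HF over Control and −0.68 for HF + SFC over Control. On both bright probe sets Control was the highest array, and on a further, dimmer one it was not, with 381 in HF + SFC, 471 in HF and 396 in Control. The second probe set of Mrpl9 was the only 1 of 98 bright probe sets of these genes to pass 1.5-fold in any comparison.

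Further low ratios of HF over Control came from Mrpl35, Mrpl2, Mrps35 and Mrps28. Mrpl35 had 3162 in HF + SFC, 3077 in HF and 3659 in Control. Mrps28, a small subunit protein, had 6297 in HF + SFC, 5768 in HF and 6668 in Control. On the brightest probe set of all 4 genes the signal was highest in Control and lowest in HF. On the high side, Mrpl1 had 1143 in HF + SFC, 1247 in HF and 1065 in Control. Its next probe set had 588 in HF + SFC, 564 in HF and 586 in Control, so HF was the lowest array there. The dimmest had 23.9 in HF + SFC, 26.5 in HF and 3.55 in Control. Mrps22 had 1516 in HF + SFC, 1656 in HF and 1418 in Control.

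Mrps5 had the lowest ratio of HF + SFC over Control, −0.43 on the log2 scale. Its signal was 503 in HF + SFC, 569 in HF and 677 in Control. Its next probe sets had 354 and 232 in HF + SFC, 367 and 201 in HF, and 317 and 221 in Control, and on both HF + SFC was above Control. Mrpl46, a protein of the large subunit that is found only in mitochondria, had the highest ratio, with 1436 in HF + SFC, 1290 in HF and 1247 in Control. Mrpl44, related to RNase III, was among the lowest, with 1842 in HF + SFC, 2041 in HF and 2113 in Control.

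**Figure D2:**
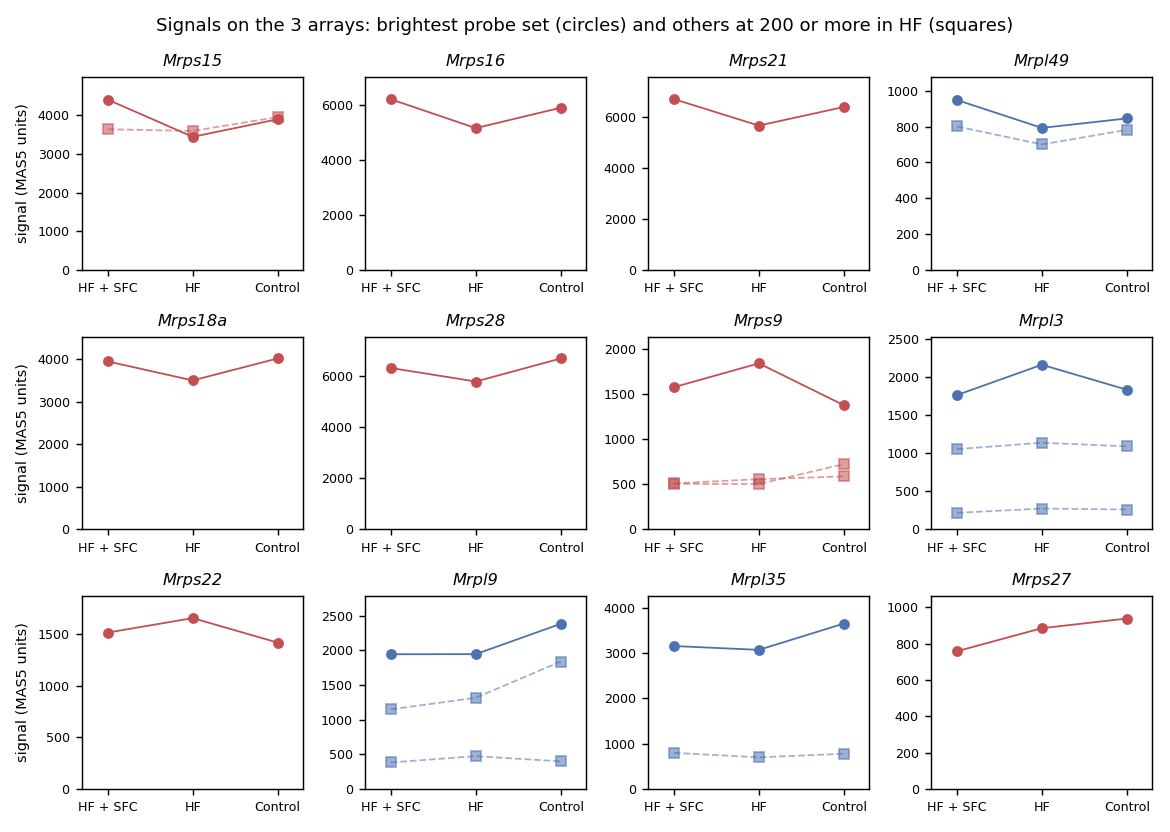
Signals in MAS5 units (y axis, starting at 0) of 12 members on the HF + SFC, HF and Control arrays, with the brightest probe set as circles and other probe sets with a signal of at least 200 in HF as squares. For Mrps15 the circles have their peak in HF + SFC (4409) while the squares do not (3641, below Control), and for Mrpl9 Control is highest on both bright probe sets.

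Genes with more than 1 bright probe set give the only technical check that these arrays allow. In 17 members the 2 brightest probe sets were both bright. The SD of the difference between their log2 ratios was 0.21 for HF + SFC over HF, 0.20 for HF over Control and 0.21 for HF + SFC over Control. The 2 probe sets pointed the same way in 7, 8 and 7 of the 17 members in these comparisons, with a Pearson r across genes of −0.0073, 0.24 and 0.23. Over the 1489 genes with such pairs, the 2 probe sets pointed the same way in 838, 944 and 958, and r was 0.25, 0.41 and 0.48. Genes are not replicates, and the paired probe sets share an array.

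**Figure D3:**
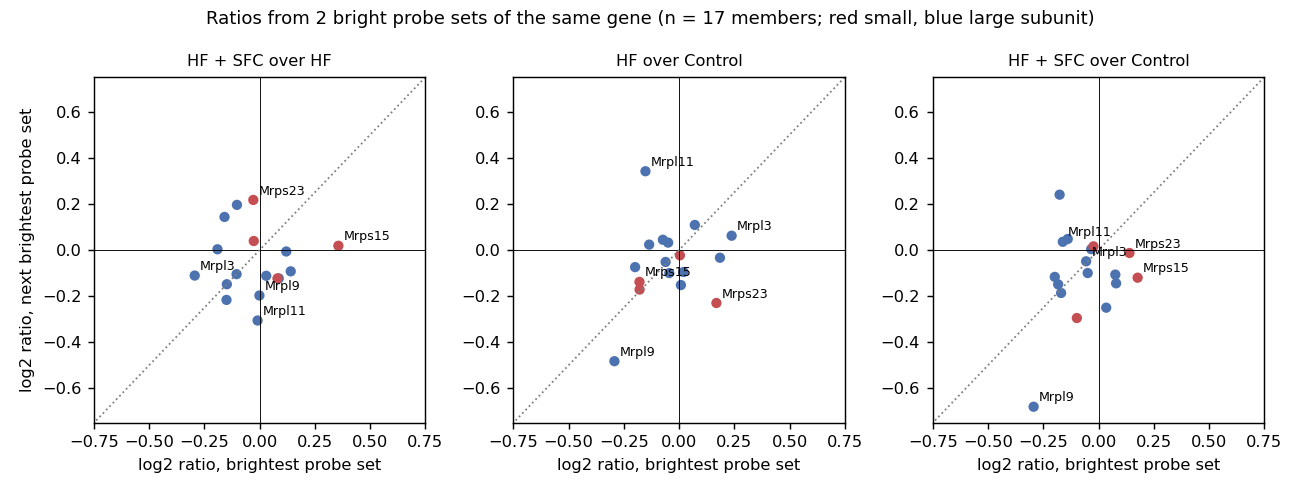
Log2 ratio from the next brightest probe set (y axis) against that from the brightest probe set (x axis) in 17 members with 2 bright probe sets, for the 3 comparisons, with the line of equality dotted. The points lie on both sides of 0 on each axis. The same direction was found in 7, 8 and 7 of 17, beside 838, 944 and 958 of 1489 among all genes with such pairs.

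Counting a gene when any of its probe sets passed 1.5-fold gave more genes. In HF + SFC over HF, 5 members were higher and 13 lower on at least 1 probe set, beside 26.4% and 26.0% of all genes counted likewise. In HF over Control, 14 were higher and 5 lower, beside 30.5% and 24.0%. In HF + SFC over Control, 7 were higher and 11 lower, beside 30.1% and 24.4%. Except for the second Mrpl9 probe set, all of these passed on the 58 dimmer probe sets, and the median HF signal of those that passed was 29.7 in HF + SFC over HF. Mrpl11 and Mrpl15 were counted both ways in one comparison each, Mrpl11 in HF over Control and Mrpl15 in HF + SFC over Control. The 4 bright probe sets of Mrpl15 stayed within 0.20 log2 units of 0 in all comparisons.

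By evolutionary origin, the median ratios of the 45 members with a bacterial counterpart were 0.03 for HF + SFC over HF, −0.14 for HF over Control and −0.03 for HF + SFC over Control. The 31 members classed as found only in mitochondria had −0.03, −0.04 and −0.02. These 31 include Mrps36, and Mrps18a and Mrps18b, which are related to Mrps18c among the 45. In HF over Control, 13 of the 45 and 14 of the 31 were higher, and after median centring 7 of 45 and 5 of 31. Quantile normalization gave 14 of 45 and 15 of 31. With averaged probe sets the medians of HF over Control were −0.04 and 0.01.

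The proteins at the polypeptide exit guide the new chain out of the large subunit, and Mrpl45 among them attaches the ribosome to the inner membrane. All 6 of these genes exceeded their HF signal in HF + SFC (Mrpl17, Mrpl22, Mrpl23, Mrpl24, Mrpl45 and Mrpl47), with log2 ratios between 0.03 and 0.15, with the same count after quantile normalization and median centring but 4 of 6 with the mean over the probe sets of each gene. Mrpl22 had 3836 in HF + SFC, 3451 in HF and 3767 in Control, and Mrpl45 had 1709 in HF + SFC, 1579 in HF and 1558 in Control. In HF over Control 5 of the 6 were lower, Mrpl45 being the exception at 0.02, all 6 after median centring and 4 of 6 with averaged probe sets.

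Near the peptidyl transferase centre, 4 of 5 genes (Mrpl2, Mrpl4, Mrpl16 and Mrpl27) had a higher signal under HF + SFC than under HF. This was on the brightest probe set, and 55.8% of bright genes were higher. The same 4 had a lower signal under HF than under Control, beside 56.7% of bright genes, and Mrpl3 was the exception in each. A dimmer second probe set of Mrpl27 ran the other way in both, with 203 in HF + SFC, 390 in HF and 239 in Control. Mrpl4 had 2858 in HF + SFC, 2620 in HF and 2920 in Control. Mrpl16 had 3915 in HF + SFC, 3677 in HF and 4139 in Control. In the stalk that binds translation factors, Mrpl12 had 7359 in HF + SFC, 7002 in HF and 7523 in Control, and Mrpl11 had 4004 in HF + SFC, 4031 in HF and 4479 in Control. A second bright probe set of Mrpl11 had 2975 in HF + SFC, 3678 in HF and 2902 in Control, so HF was the highest array there and not on the first. Mrpl10, the base of the stalk, had 1149 in HF + SFC, 1135 in HF and 1144 in Control.

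The central protuberance faces the small subunit. Of its 5 genes (Mrpl18, Mrpl38, Mrpl40, Mrpl46 and Mrpl48), 4 had a higher signal under HF than under Control and 4 under HF + SFC than under Control, but only 1 in each after median centring. Mrpl48 had 2453 in HF + SFC, 2722 in HF and 2395 in Control. A second bright probe set of Mrpl48 had 1395 in HF + SFC, 1621 in HF and 1659 in Control. Control was the highest array there and on a further, dimmer probe set of Mrpl48, but the lowest on the first. Mrpl38 had 1111 in HF + SFC, 1032 in HF and 1126 in Control. Of the genes at the mRNA channel and decoding site, Mrps12 had 3603 in HF + SFC, 3333 in HF and 3704 in Control, and Mrps24 had 4905 in HF + SFC, 4996 in HF and 4984 in Control. These region counts rest on 3 to 6 genes each. Among bright genes 55.8% were higher in HF + SFC over HF, 43.3% in HF over Control and 49.6% in HF + SFC over Control.

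Genes on which the mitochondrial ribosome depends were taken from lists of known function. Of the proteins of this ribosome with other symbols, 4 were measured (Dap3, Chchd1, Ptcd3 and Gadd45gip1), and all 4 had a higher signal with HF + SFC than with HF, and a lower one with HF than with Control, under the deposited scaling, quantile normalization and median centring, but 3 of 4 in each with averaged probe sets. Among bright genes 55.8% were higher in HF + SFC over HF and 56.7% lower in HF over Control under the deposited scaling. Dap3, a GTP-binding small subunit protein, had 2597 in HF + SFC, 2333 in HF and 2810 in Control. The 27 genes of ribosome assembly and ribosomal RNA modification had medians of −0.05 for HF + SFC over HF, −0.05 for HF over Control and −0.06 for HF + SFC over Control. Mtg2, a GTPase of large subunit assembly, stood lowest in each, with 267 in HF + SFC, 412 in HF and 601 in Control. Rpusd4, a pseudouridine synthase for mitochondrial RNA, had the highest ratio of HF + SFC over HF in that list. Its signal was 436 in HF + SFC, 305 in HF and 406 in Control. The signals of Mtg2 and Rpusd4 were below the bright limit on all arrays, and other probe sets of these genes were not checked.

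Translation factors act on the assembled ribosome. The 17 measured had medians of 0.06, −0.11 and −0.03 in the 3 comparisons. Of these 17, 12 had a ratio above 0 for HF + SFC over HF, beside 55.8% of bright genes and 51.4% of all genes. Tsfm and Tufm encode elongation factors that work as a pair, and on the brightest probe set of each they ran in opposite directions. The probe set of Tufm can bind several transcripts, and no other probe set of either gene was checked. Tsfm had 1228 in HF + SFC, 854 in HF and 1006 in Control, whereas Tufm had 1986 in HF + SFC, 2444 in HF and 2057 in Control. Mtfmt, which formylates the initiator methionine, had 271 in HF + SFC, 219 in HF and 330 in Control, all below the bright limit. The 11 genes of mitochondrial transcription and RNA maturation had medians of 0.02, −0.10 and −0.11. Tfam, which packages mitochondrial DNA and starts its transcription, had 2933 in HF + SFC, 2683 in HF and 2516 in Control. ND5, a respiratory chain subunit made by this ribosome and the only mitochondrially encoded protein measured here, had 54904 in HF + SFC, 41522 in HF and 45350 in Control.

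The respiratory chain subunits encoded in the nucleus and the proteins of the cytosolic ribosome were the nearest gene groups for comparison. Of 73 bright respiratory chain genes, 66 had a ratio above 0 for HF + SFC over HF (median 0.12), beside 43 of the 75 bright mitochondrial ribosomal genes with a median of 0.03. In HF over Control the respiratory chain median was −0.08 with 11 of 73 higher, and in HF + SFC over Control 0.05 with 52 of 73 higher. The 37 bright cytosolic ribosomal genes had medians of 0.10, −0.06 and 0.03, with 29, 10 and 29 higher. Quantile normalization brought the median of HF + SFC over HF to 0.03 over all 80 respiratory chain genes and to 0.0071 over all 47 cytosolic ribosomal genes, with 0.03 over the 76 mitochondrial ribosomal genes. It also took HF + SFC over Control to −0.0017 over respiratory chain and −0.0058 over cytosolic ribosomal genes. Median centring gave 0.10 for HF + SFC over HF over respiratory chain genes (65 of 80 higher) and 0.02 over mitochondrial ribosomal genes (43 of 76 higher). The distance between these groups was thus present under the deposited scaling and median centring and nearly absent after quantile normalization.

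**Figure D4:**
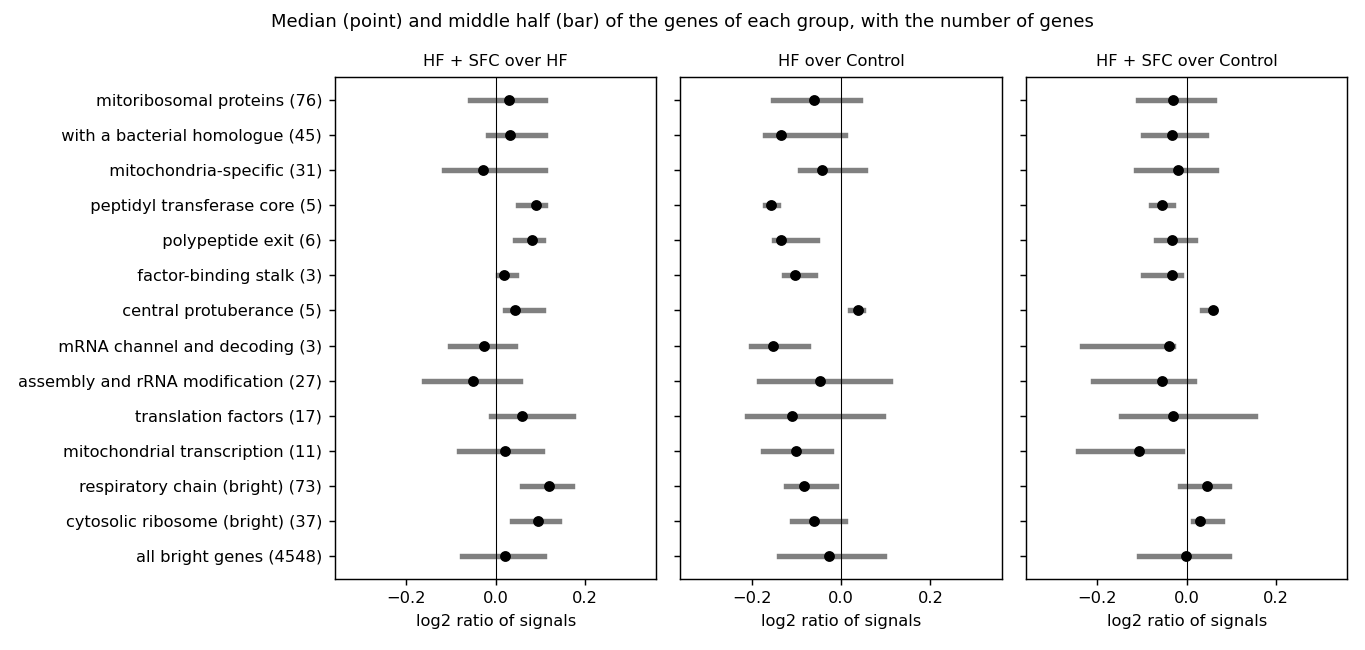
Median log2 ratio (points) and range between the quartiles of the genes (bars) for the 76 members, their groups by origin and region, the lists of genes that act with them, 2 other groups of genes and all bright genes, with the number of genes in brackets. In HF + SFC over HF the respiratory chain (median 0.12) lies to the right of the mitochondrial ribosomal proteins (median 0.03) under the deposited scaling.

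The ratios of genes with and without each motif are given for HF + SFC over HF, HF over Control and HF + SFC over Control in that order. The 25 genes with ETS letters had medians of −0.03, −0.01 and 0.00045, with 12, 12 and 13 higher. The 42 genes without them had 0.03, −0.07 and −0.04, with 23, 14 and 16 higher. The 12 genes with the NRF-1 motif had 0.01, −0.02 and −0.05, with 6, 6 and 5 higher, and the 55 without had 0.02, −0.06 and −0.02, with 29, 20 and 24 higher. The 12 genes with YY1 letters had 0.00079, −0.09 and −0.04, with 6, 4 and 2 higher, and the 55 without had 0.02, −0.05 and −0.0041, with 29, 22 and 27 higher. All of these medians lay within 0.1 log2 units of 0.

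Many of these genes start back to back with another gene. In 23 of 67 members, 34.3%, the start of a protein-coding gene on the opposite strand lay within 1000 bases upstream, against 8.48% of protein-coding genes, 27.1% of respiratory chain and 13.6% of cytosolic ribosomal genes. Mrpl46 and Mrps11, 1 gene of each subunit, face each other with starts 42 bases apart, and the stretch between them is printed for that reason, with a GC box in capitals (chr7:78783090-78783130, plus strand).
Mrpl46 and Mrps11: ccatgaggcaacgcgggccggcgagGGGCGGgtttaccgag

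On the arrays the genes of this pair had ratios of opposite sign for HF + SFC over HF and for HF + SFC over Control, and both were above 0 for HF over Control. Mrps11 had 845 in HF + SFC, 1002 in HF and 917 in Control, with log2 ratios of −0.25 for HF + SFC over HF, 0.13 for HF over Control and −0.12 for HF + SFC over Control. Those of Mrpl46 were 0.15, 0.05 and 0.20. Mrpl49 lies opposite Fau, a gene of a cytosolic ribosomal protein, at 192 bases, and their ratios of HF + SFC over HF were 0.26 and 0.12. Mrps27 lies opposite Ptcd2 at 108 bases, with −0.22 for Mrps27 and 0.30 for Ptcd2.

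Signs of tissue make-up and RNA quality moved between the arrays beside these small ratios. The labelled tissue had high signals of muscle genes, and the 10 slow fibre markers summed to 95823 in HF + SFC, 75566 in HF and 102835 in Control, while the 14 fast fibre markers summed to 680768 in HF + SFC, 578019 in HF and 635301 in Control. Of the 10 slow fibre markers, 9 had log2 ratios above 0 for HF + SFC over HF under the deposited scaling. For HF over Control 9 of the 10 had log2 ratios below 0. Casq2 ran the other way in both, with 1181 in HF + SFC, 1486 in HF and 965 in Control. All 14 fast fibre markers had log2 ratios above 0 for HF + SFC over HF under the deposited scaling. For HF over Control all 14 had log2 ratios below 0 under that scaling. After quantile normalization 10 of the 14 fast fibre markers were higher in the first comparison and 2 of 14 in the second. Of 9 listed adipocyte markers 7 were measured, and they summed to 30110 in HF + SFC, 33595 in HF and 23486 in Control. Fabp4 made up most of each sum, with 25306 in HF + SFC, 26497 in HF and 21626 in Control. In HF 6 of the 7 were higher than in Control. Pck1 was the exception, with 166 in HF + SFC, 119 in HF and 219 in Control. Adipoq, which defines adipocytes, had 2915 in HF + SFC, 4637 in HF and 901 in Control. The 9 fibroblast and matrix markers summed to 43355 in HF + SFC, 44758 in HF and 34721 in Control, and all 9 were above Control in both high-fat groups. The 10 leukocyte markers summed to 2976 in HF + SFC, 3014 in HF and 2413 in Control, with 9 of 10 above Control in each. The 8 endothelial markers summed to 6624 in HF + SFC, 6459 in HF and 6282 in Control. Only 4 of 8 listed erythroid markers were measured, none of them a beta-globin gene, and they summed to 187 in HF + SFC, 201 in HF and 215 in Control. By mean log2 signal all 4 erythroid markers lay below the median gene, and their globins ran in opposite directions. Hba-a1 had 49.7 in HF + SFC, 4.58 in HF and 1.47 in Control, and Hba-a2 had 1.89, 5.92 and 27.5 in that order. The leukocyte markers Ptprc, Cd68, Cd14, Itgam, Cd3e and Cd79a also lay below the median gene. The signal of the 3′ probe set of beta-actin divided by that of its 5′ probe set was 1.15 in HF + SFC, 1.52 in HF and 1.09 in Control, and that of Gapdh 0.820 in HF + SFC, 0.832 in HF and 0.842 in Control. The part of these differences in the ratios of the mitochondrial ribosomal genes was not tested. In bulk muscle, fewer cells of a type and less RNA per cell cannot be told apart.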

How the data were processed

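The authors hybridised 1 mix of cDNA per group to an Affymetrix Mouse Genome 430 2.0 array. They deposited linear MAS5 intensities, with a 2% trimmed mean of 500.0 per array. The version and settings of MAS5 are not given in the sources used here. The array holds 45101 probe sets, and the annotation gave a single symbol to 34945, several to 932 and none to 9160, besides 64 controls. All 76 members matched RefSeq by gene ID and 0 changed symbol. Log2 ratios of intensities were computed without an offset, a filter or a test (Python 3.11.15, numpy 2.4.6, pandas 2.3.3), on code tested on simulated data. Depth does not apply to arrays, and their number limits the precision.

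Named genes were the 5 highest and 5 lowest bright members per comparison, the 3 brightest and 3 dimmest per subunit, members of structural regions, the Mrps18 genes, Mrps30, Mrps36, members whose probe sets disagreed at 1.5-fold, and extremes of the lists. Divergent partners were chosen after their values were seen. Members and lists were chosen with earlier results of these data known. The alternatives tried were averaging the probe sets of a gene, centring arrays on their median, normalizing by quantiles, adding an offset of 50, filtering dim probe sets, leaving out probe sets that can bind several transcripts, a 2-fold limit, subunits by structure and updated symbols.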

Additional observations from a re-analysis of the deposited data

How the results depend on the processing

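The median over all members kept its sign in every comparison under all alternatives run, of which the dim filter and updated symbols left it unchanged. In the order HF + SFC over HF, HF over Control and HF + SFC over Control, median centring gave medians of 0.016, −0.14 and −0.13, with 12 and 11 members higher in the last 2 comparisons. Averaging all probe sets of a gene gave medians of 0.012 and −0.016 in the first 2 comparisons, and in the 3 comparisons 2, 3 and 3 members at least 1.5-fold higher and 5, 2 and 1 lower, where the brightest probe sets gave 0. By construction this average weights dim probe sets equally with bright ones. Leaving out probe sets that can bind several transcripts gave 1 member lower, 1 higher and 1 lower in the same order. Median centring shifts both subunits alike and so cannot change the small-minus-large difference, and the dim filter and updated symbols left it unchanged. Under the other alternatives run, the small-minus-large difference stayed below 0 in HF over Control. In HF + SFC over HF it changed sign only after quantile normalization. In HF + SFC over Control it changed sign only with averaged probe sets and by structure. It was −0.013, −0.015 and −0.014 with averaged probe sets, 0.0074, −0.014 and 0.0033 after quantile normalization, −0.034 and −0.040 in the first 2 comparisons without probe sets of several transcripts, and −0.020, −0.010 and −0.00021 by structure. Counts at 1.5-fold on any probe set, higher and lower, became 3 and 3, 6 and 1, and 2 and 1 with an offset of 50, and 0 and 1, 3 and 0, and 1 and 1 without dim probe sets. At 2-fold they became 3 and 9, 6 and 3, and 6 and 5. Of 147 ratios of named members, 25 changed sign with averaged probe sets, 21 with median centring and 4 with quantile normalization.

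With 1 array per group leaving out a replicate was not possible and no error between animals is known. The SD of the difference between 2 bright probe sets of a gene was 0.20 to 0.21 in log2 units. No paired analysis was possible because each group had 1 array and the groups share only replicate number 1.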
